A study of Mus musculus with 8 samples.

Results

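The insulin-like growth factor 1 (IGF1) axis and the IGF binding proteins were followed through Sox6 knockdown in cultured vessel wall cells. The 10 genes were taken by symbol, as a list of the ligand Igf1, the receptors Igf1r and Insr, the adaptor Irs1 and 6 binding protein genes (Igfbp2 to Igfbp7). Every one of the 10 was found among the 30660 gene identifiers of the count table, and 9 passed the filter on low counts that left 16150 genes to test. Igfbp2 did not.

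IGF1 is a secreted peptide that binds the receptor tyrosine kinase IGF1R, and the related insulin receptor binds insulin and IGF2. Activated receptors phosphorylate docking proteins such as IRS1, which recruit PI3K and the Ras pathway and so drive growth and survival. Outside the cell the IGF binding proteins hold the ligand, prolong its life or keep it from the receptor, and proteases release it again. Vascular smooth muscle cells make IGF1 and several binding proteins themselves, and IGF1 is known as a growth and survival factor for them.

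RNA-seq libraries were made from primary mouse vascular smooth muscle cells, 4 from control cells titled nc (genotype and treatment given as WT) and 4 from cells titled sisox6 (genotype and treatment given as Sox6 knockdown). The labels used here give no mouse strain, age, vessel, culture time or knockdown agent, nor whether the replicates were separate cultures or animals. The p-values therefore reflect variation among these 8 libraries alone, and that variation could be technical. The libraries held 37604102 to 49393224 counts, and abundance is given as CPM (counts relative to the scaled library total) scaled by TMM, a correction for differing RNA composition, as mean ± SD with n = 4 per group. Sox6, the gene targeted, had 6, 10, 6 and 4 counts in control replicates 1 to 4 and 2, 4, 0 and 0 in the knockdown replicates, so that the targeted gene was near the detection limit in both groups, without overlap in CPM (exact two-sided permutation test over 70 assignments, p = 0.0286, which is the minimum for this design). Sox6 did not pass the filter on low counts, and in edgeR without the filter it did not pass the threshold of 0.05 (adjusted p = 0.0774). Of the smooth muscle markers Acta2 was at 1239, Cald1 at 650 and Smtn at 54.6 CPM in controls. Myh11 was at 5.90, Cnn1 at 2.23 and Tagln at 0.113 CPM, and the heart muscle gene Myh6 was at 162 CPM.

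Of the 10 genes 6 fell and 1 rose. Igf1 and Igfbp5 fell to 6.00% and 14.3% of their control level, Igfbp7, Igfbp3, Irs1 and Igf1r fell by smaller amounts, and Igfbp4 rose. In the same libraries the summed level of 8 striated and heart muscle markers stood at 16.8% of control and that of 8 endothelial markers at 56.4%, and their part in these changes was not tested. The endothelial sum includes Vwf, which rose. Insr and Igfbp6 did not pass the threshold, an adjusted p under 0.05 in edgeR's quasi-likelihood test with Benjamini-Hochberg adjustment over all 16150 genes. Calls were frequent in the whole table: 51.5% of tested genes passed, 26.0% lower and 25.4% higher in the knockdown. The median log2 fold change was -0.30 over the 9 tested members and 0.02 over all tested genes. Scaling by total counts alone raised the median of all tested genes to 0.12 and turned the split of calls from 4105 higher and 4206 lower into 5926 higher and 3045 lower. The 7 calls among the members and their directions held under that scaling too. The CPM ranges of the groups did not overlap for the same 7 members, 6 lower and 1 higher, while they did not overlap for 46.9% of all tested genes (24.0% lower and 22.8% higher).

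**Figure D1:**
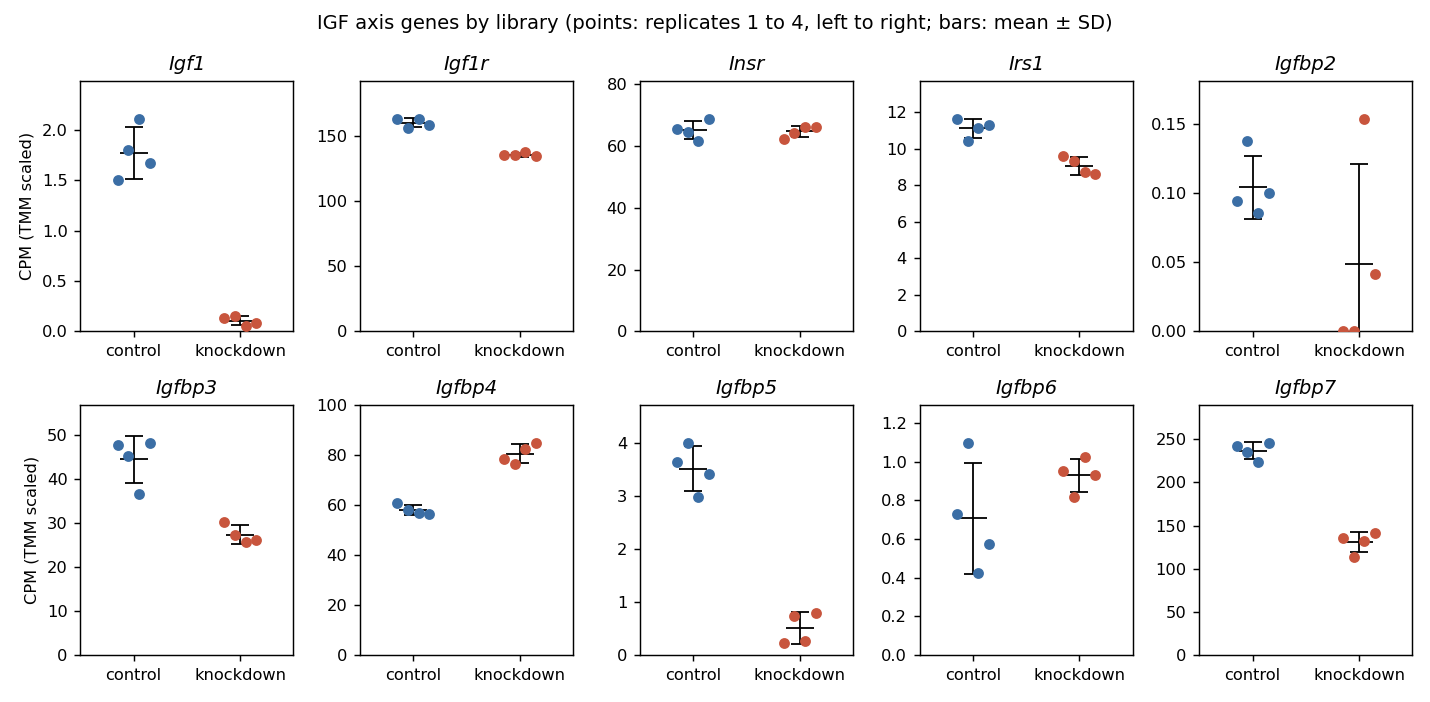
Abundance of the 10 genes in CPM (y axis, linear, from 0) in the 4 control and 4 knockdown libraries (points, replicates 1 to 4 from left to right), with mean ± SD as black bars, cut at 0 for Igfbp2. The groups do not overlap for Igf1, Igf1r, Irs1, Igfbp3, Igfbp4, Igfbp5 and Igfbp7, and they overlap for Insr, Igfbp2 and Igfbp6.

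Igf1, the ligand (ENSMUSG00000020053, mm10 chromosome 10, 87858265 to 87937042, plus strand), was a low transcript that came close to the detection limit in the knockdown. It had 64, 79, 99 and 67 counts in control replicates 1 to 4 and 6, 8, 2 and 4 counts in knockdown replicates 1 to 4. Every control library held many more Igf1 reads than any knockdown library, and knockdown replicate 3 was under the 3 counts taken here as the floor. The mean went from 1.77 ± 0.257 to 0.106 ± 0.0479 CPM, a difference of -3.995 ± 0.31 on the log2 scale (SE, edgeR adjusted p = 9.37e-08). The ratio of summed counts, 20 against 309, was 0.0613 with an exact 95% interval of 0.0369 to 0.0963, and of 0.0287 to 0.115 on halved counts, as for read pairs entered as 2 reads. These intervals cover counting error only. Of the 16150 tested genes, Igf1 had the ninth largest fitted decrease. All its knockdown counts were under the filter's minimum count of 10, so Igf1 entered the tested genes only through the control libraries. The rank is therefore a description, and the fitted size behind it rests on few knockdown reads. In bulk RNA, fewer cells that make a transcript and less of it per cell cannot be told apart, and this holds for each gene below.

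RefSeq promoter windows, 250 bases before to 50 after a start on GRCm38.p6 (the same build as mm10), were found for 9 of the 10 genes. Windows of 3 are shown to set the largest fall, Igf1, and the second largest, Igfbp5, beside Igfbp4, which rose. Capitals mark matches on either strand to any of the letters AACAAT and ACAAAG (Sox-type core sequences), GGAATG (the TEAD core) and TATAAA (the TATA box).
Igf1, chr10:87860861-87861160, plus strand: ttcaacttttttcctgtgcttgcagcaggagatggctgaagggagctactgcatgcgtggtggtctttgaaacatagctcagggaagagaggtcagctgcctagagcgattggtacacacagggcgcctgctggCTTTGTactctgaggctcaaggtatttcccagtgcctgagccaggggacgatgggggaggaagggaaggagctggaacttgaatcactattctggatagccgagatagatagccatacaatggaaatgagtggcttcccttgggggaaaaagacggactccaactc
Igfbp5, chr1:72874816-72875115, minus strand: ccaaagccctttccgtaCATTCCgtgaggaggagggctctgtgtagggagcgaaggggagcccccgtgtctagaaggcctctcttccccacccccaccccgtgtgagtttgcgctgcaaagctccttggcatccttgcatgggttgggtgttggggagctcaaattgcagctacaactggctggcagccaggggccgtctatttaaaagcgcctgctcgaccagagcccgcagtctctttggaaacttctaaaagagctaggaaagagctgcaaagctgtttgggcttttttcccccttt
Igfbp4, chr11:99040994-99041293, plus strand: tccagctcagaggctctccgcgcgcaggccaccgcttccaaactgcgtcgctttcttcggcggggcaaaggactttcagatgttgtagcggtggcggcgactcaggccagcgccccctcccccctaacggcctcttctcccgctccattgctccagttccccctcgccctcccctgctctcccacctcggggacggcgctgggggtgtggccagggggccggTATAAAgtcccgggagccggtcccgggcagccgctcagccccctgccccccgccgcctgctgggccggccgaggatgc

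AACAAT was in 0 of the 10 windows of these genes and in 10.7% of all 32851 windows. ACAAAG was in the windows of Igf1 and Igf1r and in 18.7% of all windows. GGAATG was in those of Igfbp5 and Irs1 and in 14.7% of all. TATAAA was in those of Igfbp4 and Igfbp6 and in 13.6% of all, and in Igfbp4 it began 28 bases before the start. The Igf1 window lies inside the annotated gene, downstream of its outermost start. Those of Igf1r and Igfbp6 end before the annotated gene starts, and the ACAAAG match of Igf1r began 9 bases after the start used for its window. These matches describe letters in short windows and were not tested for binding.

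Of the receptor genes, Igf1r fell slightly and Insr gave no call. Igf1r (ENSMUSG00000005533, chromosome 7, 67952827 to 68233668) was at 163, 156, 163 and 158 CPM in control replicates 1 to 4 and at 135, 135, 138 and 134 CPM in knockdown replicates 1 to 4. The groups did not overlap, and the libraries of a group lay close together. The fall was small, from 160 ± 3.21 to 135 ± 1.504 CPM, a difference of -0.24 ± 0.04 on the log2 scale (SE, edgeR adjusted p = 6.33e-05), and 24.7% of tested genes had a larger decrease. Insr, the insulin receptor gene (ENSMUSG00000005534, chromosome 8, 3122061 to 3279617, minus strand), was at 65.6, 64.5, 61.6 and 68.7 CPM in controls and at 62.2, 64.3, 66.1 and 66.3 CPM in knockdowns. All 4 knockdown values lay within the range of the controls. Its log2 fold change was -0.01 with a 95% interval of -0.12 to 0.10 (edgeR adjusted p = 0.894).

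Per length of exon (FPKM), Igf1r was above Insr in every library. The ratio of the Igf1r level to the Insr level in FPKM was 2.03, 1.98, 2.16 and 1.89 in control replicates 1 to 4 and 1.77, 1.72, 1.70 and 1.66 in the knockdown replicates, so the 2 ranges did not overlap.

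Irs1, the docking protein gene (ENSMUSG00000055980, chromosome 1, 82233101 to 82291416, minus strand), was at 11.6, 10.4, 11.2 and 11.3 CPM in controls and at 9.63, 9.32, 8.70 and 8.59 CPM in knockdowns. Every knockdown library was below the controls, by a margin of 0.785 CPM between the nearest libraries. The mean fell from 11.1 ± 0.514 to 9.06 ± 0.498 CPM, with a log2 fold change of -0.30 ± 0.07 (SE, edgeR adjusted p = 0.00395). The annotated exons of Irs1 overlap those of Gm9747, a gene on the opposite strand, over 30.9% of their length. The strand setting of the counting is not given in the sources used here, so reads from the shared part cannot be told apart.

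**Figure D2:**
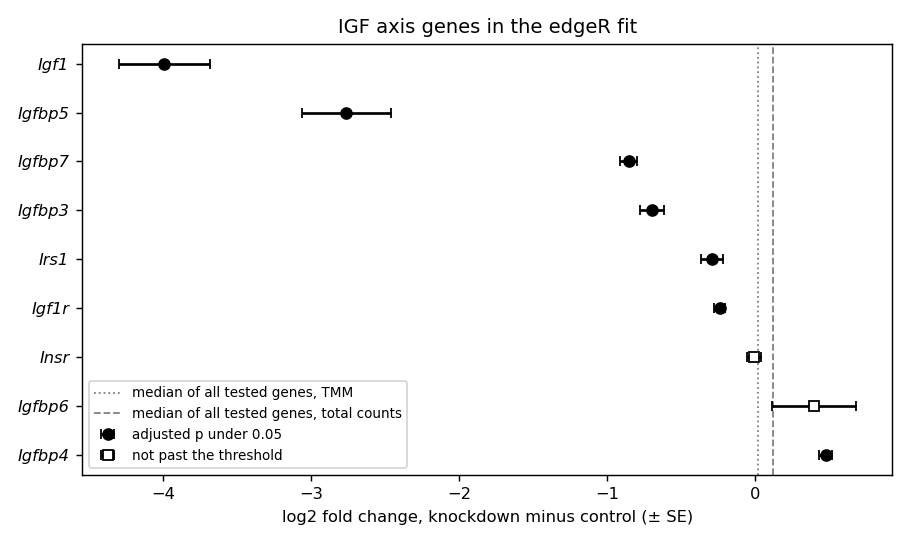
Log2 fold change of the 9 tested genes (x axis, knockdown minus control, ± SE from edgeR), with filled circles for an adjusted p under 0.05 and open squares for genes not past it. Vertical lines give the median of all tested genes with TMM (0.02) and with total count scaling (0.12). Igf1 at -3.995 and Igfbp5 at -2.76 stand far to the left of the others, and Igfbp4 at 0.47 lies on the other side.

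Igfbp5 encodes a binding protein that is held in the extracellular matrix and is known from smooth muscle (ENSMUSG00000026185, chromosome 1, 72857932 to 72874884, minus strand). It had 155, 175, 140 and 137 counts in control replicates 1 to 4 and 10, 38, 10 and 38 counts in knockdown replicates 1 to 4. Among the knockdowns, replicates 2 and 4 (0.737 and 0.785 CPM) were above replicates 1 and 3 (0.227 and 0.255 CPM), and all 4 were far below the lowest control at 2.98 CPM. The mean fell from 3.51 ± 0.425 to 0.501 ± 0.301 CPM, with a log2 fold change of -2.76 ± 0.30 (SE, edgeR adjusted p = 2.91e-06). Igf1 and Igfbp5 were the only members to fall by more than 4 fold, as did 1.48% of all tested genes.

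Igfbp7 encodes a secreted protein of the vessel wall with low affinity for IGFs (ENSMUSG00000036256, chromosome 5, 77349240 to 77408041, minus strand). It was the most abundant member in CPM in all 4 control libraries, at 243, 235, 224 and 246 CPM in control replicates 1 to 4, and stood at 136, 114, 132 and 141 CPM in knockdown replicates 1 to 4. The gap of 82.8 CPM between the nearest libraries of the groups exceeded the range within either group. The mean fell from 237 ± 9.89 to 131 ± 11.8 CPM, with a log2 fold change of -0.86 ± 0.06 (SE, edgeR adjusted p = 2.83e-08), the smallest p among the members. Exons of Polr2b, on the opposite strand, overlap 7.03% of the exon length of Igfbp7.

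Igfbp3 encodes the main carrier of IGF1 in blood (ENSMUSG00000020427, chromosome 11, 7206086 to 7213923, minus strand). It was at 47.8, 45.3, 36.7 and 48.3 CPM in controls and at 30.4, 27.4, 25.6 and 26.2 CPM in knockdowns. Control replicate 3 was lower than the other controls and still above every knockdown. The mean fell from 44.5 ± 5.39 to 27.4 ± 2.11 CPM, with a log2 fold change of -0.70 ± 0.08 (SE, edgeR adjusted p = 5.99e-06).

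Igfbp4 encodes a binding protein known to keep IGFs from their receptor until it is cleaved by the protease PAPP-A (ENSMUSG00000017493, chromosome 11, 99041244 to 99054392, plus strand). It was at 60.6, 58.0, 56.7 and 56.2 CPM in control replicates 1 to 4 and at 78.4, 76.3, 82.3 and 84.8 CPM in knockdown replicates 1 to 4. Every knockdown library was above the controls. The mean rose from 57.9 ± 1.97 to 80.4 ± 3.84 CPM, a difference of 0.47 ± 0.05 on the log2 scale (SE, edgeR adjusted p = 1.05e-06). Igfbp4 was the only member called higher.

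The other binding protein genes were rare and gave no call. Igfbp6, whose product prefers IGF2, had 31, 48, 20 and 23 counts in controls and 42, 42, 40 and 45 in knockdowns (0.706 ± 0.288 and 0.929 ± 0.0859 CPM). The controls spread around the knockdowns, with control replicate 2 above all of them. The log2 fold change was 0.39 with a 95% interval of -0.30 to 1.09 (edgeR adjusted p = 0.265). Igfbp2 had 4, 6, 4 and 4 counts in controls and 0, 0, 6 and 2 in knockdowns, or 18 against 8 in sum. The ratio was 0.421 with an exact 95% interval of 0.158 to 1.02, and the groups overlapped (exact permutation test on CPM, two-sided p = 0.229). A count of 0 in knockdown replicates 1 and 2 allows up to 0.0680 and 0.0582 CPM (3 counts each), so no difference in Igfbp2 was detectable at this depth.

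In FPKM, where genes can be compared with each other, the control levels ran from Igfbp7 (196 ± 8.18) through Igfbp3 (14.2 ± 1.72), Igfbp4 (13.1 ± 0.446), Igf1r (9.52 ± 0.191), Insr (4.74 ± 0.213) and Irs1 (1.22 ± 0.0562) to Igfbp6 (0.634 ± 0.259), Igfbp5 (0.584 ± 0.0708), Igf1 (0.179 ± 0.0259) and Igfbp2 (0.0563 ± 0.0124). Of neighbours in this order, Igfbp3 and Igfbp4 overlapped, as did Igfbp6 and Igfbp5. In the knockdown Igfbp4 (18.2 ± 0.869) stood above Igfbp3 (8.75 ± 0.675) in every library, and Igf1 (0.0107 ± 0.00483) had the lowest mean. Igfbp5 lay above Igf1 in every knockdown library, while Igfbp2 overlapped both. The lengths are those of all annotated exons joined, so genes with long alternative ends are set too low.

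**Figure D3:**
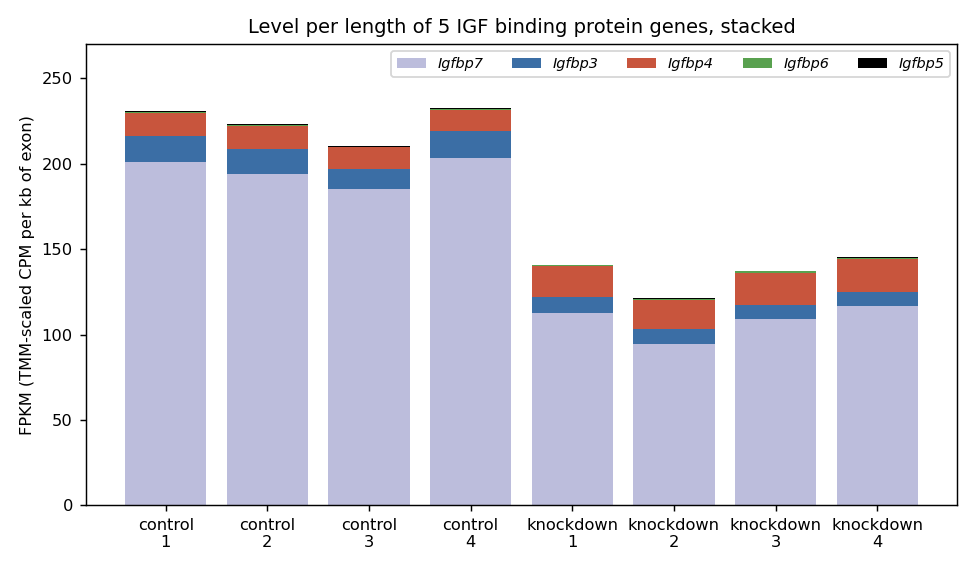
Stacked level per length (y axis, FPKM, from 0) of Igfbp7, Igfbp3, Igfbp4, Igfbp6 and Igfbp5 in the 8 libraries (bars), with Igfbp2 left out as too rare to see. Control bars reach 211 to 233 FPKM and knockdown bars 121 to 145 FPKM, with a thicker Igfbp4 layer in the knockdown.

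Summed over the 6 binding protein genes, the level per length was 231, 223, 211 and 233 FPKM in control replicates 1 to 4 and 141, 121, 137 and 145 FPKM in knockdown replicates 1 to 4. The control mean was 224 ± 10.1 FPKM and the knockdown mean 136 ± 10.5 FPKM, or 60.6% of control. In CPM the sum stood at 69.9% of control. The sum is a description with no test, and most of it is Igfbp7. Igfbp7 made up 87.3 ± 0.485% of the sum in FPKM in controls and 79.4 ± 1.11% in knockdowns. Igfbp4 made up 5.85 ± 0.268% and 13.4 ± 0.696%, while Igfbp3 made up 6.32 ± 0.507% and 6.46 ± 0.706%. Shares of 1 sum are not independent of each other.

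The ligand and carrier genes outside the list had few counts, apart from the receptor gene Igf2r. Of 8 such genes 5 were analysed here and 1 was tested. Igf2r, the receptor that clears IGF2, went from 176 ± 6.56 to 192 ± 7.13 CPM, a difference of 0.13 ± 0.04 on the log2 scale (SE, edgeR adjusted p = 0.0211). That call was lost without control replicate 3 or without knockdown replicate 1. Igf2, the other IGF ligand, was picked out with its values known and had 7, 3, 5 and 7 counts in controls and 1, 0, 0 and 0 in knockdowns. The annotated exons of Igf2 overlap those of Gm49394 on the same strand and Igf2os on the opposite strand over 64.5% of their length. Reads from the shared parts cannot be told apart. Igfals, which joins IGFBP3 in a ternary complex in blood, had 7, 6, 4 and 2 counts in controls and 12, 9, 6 and 10 in knockdowns and was not tested.

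Proteases that cut IGF binding proteins, and their inhibitors, moved in both directions. Of 18 tested genes 7 rose, 8 fell and 3 did not pass, with a median log2 fold change of -0.01. For comparison, 25.4% of all tested genes were called higher and 26.0% lower, or 51.5% in either direction. Timp1, an inhibitor of metalloproteinases, fell from 193 ± 25.8 to 75.8 ± 1.84 CPM (log2 fold change -1.35, edgeR adjusted p = 3.02e-09), as did the metalloprotease Adam9 (-0.67). The serine protease gene Htra3 rose from 34.8 ± 2.94 to 63.1 ± 3.60 CPM (0.86, adjusted p = 4.88e-08). Pappa, the gene of the protease that cuts IGFBP4, had 0 counts in the 4 control libraries and in 3 of 4 knockdowns, with 4 counts in knockdown replicate 2, and 0 counts allow up to 0.0638 to 0.0748 CPM in the control libraries (3 counts each).

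Inside the cell, changes were mostly small and went both ways. Of 25 tested receptor adaptors 5 rose and 8 fell (median log2 fold change -0.05). This count and those of the lists below stand beside 51.5% of all tested genes called, 25.4% higher and 26.0% lower. Grb10, an imprinted adaptor known to restrain IGF1R and insulin receptor signalling, fell from 3.33 ± 0.437 to 0.366 ± 0.134 CPM (-3.18 ± 0.23 SE, edgeR adjusted p = 5.45e-08). The adaptors Gab2 (-0.69), Dok1 (-0.38) and Crk (-0.36) fell as well. Of 32 genes of the PI3K and Akt branch, 9 rose and 10 fell (median -0.00028). The Akt phosphatase gene Phlpp1 fell (log2 fold change -0.64), while Foxo3 (0.40) and the translation inhibitor gene Eif4ebp2 (0.42) rose. With total count scaling the branch had 14 higher and 5 lower.

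Of 18 genes of the Ras and ERK branch, 7 rose and 6 fell (median log2 fold change 0.04). The ribosomal S6 kinase gene Rps6ka2 rose from 2.63 ± 0.28 to 6.31 ± 0.195 CPM (1.26, edgeR adjusted p = 3.6e-07), as did the transcription factor gene Elk1 (0.43), while Map2k1 (-0.38) and the phosphatase gene Ptpn11 (-0.36) fell. Of 19 tested negative regulators of receptors and adaptors, 3 rose and 6 fell (median -0.06), and with total count scaling 8 were higher. The receptor phosphatase gene Ptprf fell from 7.02 ± 0.616 to 1.07 ± 0.247 CPM (-2.73, adjusted p = 3.71e-09), followed by the pseudokinase genes Trib1 (-0.65) and Trib2 (-0.56) and by Ptpn2 (-0.35). Of 17 genes of IGF2 mRNA binding proteins and transcription factors named as regulators of Igf1, Igf1r or Insr, 3 rose and 9 fell (median -0.30), among them Brca1 (-1.06), E2f1 (-0.73), Hmga1 (-0.43) and Hif1a (-0.35).

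**Figure D4:**
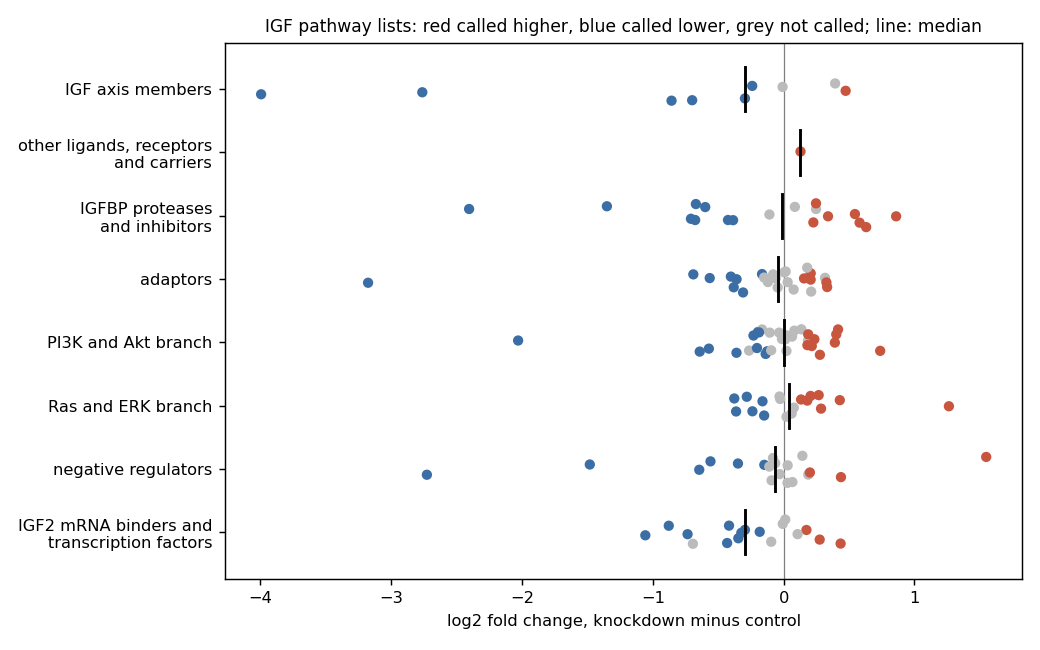
Log2 fold change of every tested gene (points, x axis) in the IGF axis list and 7 pathway lists (rows), with red for genes called higher, blue for genes called lower, grey for the rest and a black line at each list's median. The IGF axis list, with a median of -0.30, has Igf1 and Igfbp5 at its far left, the list of IGF2 mRNA binding proteins and transcription factors also has a median of -0.30, and the other 6 lists have medians between -0.06 and 0.13.

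Summed marker levels were lower in the knockdown without overlap, except for macrophage and leukocyte markers, whose ranges overlapped. Single markers went both ways in some lists. Of all tested genes 25.4% were called higher and 26.0% lower. All 8 striated and heart muscle markers fell (median log2 fold change -2.62), with a summed level of 276 to 395 CPM in controls and 27.7 to 105 CPM in knockdowns. Of 7 tested endothelial markers 6 fell and 1 rose, with a summed level of 11.3 to 13.3 CPM in controls and 5.95 to 7.70 CPM in knockdowns. The marker that rose was Vwf, from a mean of 1.10 to 3.14 CPM (log2 fold change 1.51), so the sum understates the fall of the others. Of 6 mesothelial markers 4 fell (180 to 194 and 116 to 134 CPM summed). Of 8 fibroblast markers 2 rose and 3 fell (2276 to 2444 and 1866 to 2028 CPM summed), and of 9 tested smooth muscle markers 5 fell and none rose (1807 to 2084 and 1318 to 1517 CPM summed). Most of the fibroblast sum was Col1a1, with means of 1941 CPM in controls and 1529 CPM in knockdowns, so the sum follows mainly that gene. Pdgfra and Pi16 were the fibroblast markers that rose. Of 12 macrophage and leukocyte markers 4 were tested, of which 1 rose and 1 fell (62.3 to 68.5 and 59.1 to 63.7 CPM summed). The defining leukocyte gene Ptprc summed to 13 counts in controls and 20 in knockdowns, and no marker of the 6 lists was at 0 in all 8 libraries.

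The libraries ordered by summed endothelial marker level had the same order by Igfbp7 level within each group, a pattern seen after the data were examined. The endothelial sum was 12.9, 11.5, 11.3 and 13.3 CPM in control replicates 1 to 4 and 7.45, 5.95, 6.48 and 7.70 CPM in knockdown replicates 1 to 4. Both measures were lowest in control replicate 3 and knockdown replicate 2. The order in the controls depends on Vwf, which had 58, 54, 36 and 42 counts in control replicates 1 to 4. With Vwf left out of the sum, that order no longer matches Igfbp7. The smooth muscle marker sum was lowest in the same libraries (1807 and 1318 CPM). With 6 marker lists, 10 members and 4 libraries per group, many such pairings were possible. The striated muscle sum was 41.8, 27.7, 53.3 and 105 CPM in knockdown replicates 1 to 4. Igfbp5 was at 0.227, 0.737, 0.255 and 0.785 CPM in these libraries, from 10, 38, 10 and 38 counts. The part of these cell types in the changes of Igf1, Igfbp5, Igfbp7 and Igfbp3 was not tested.

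**Figure D5:**
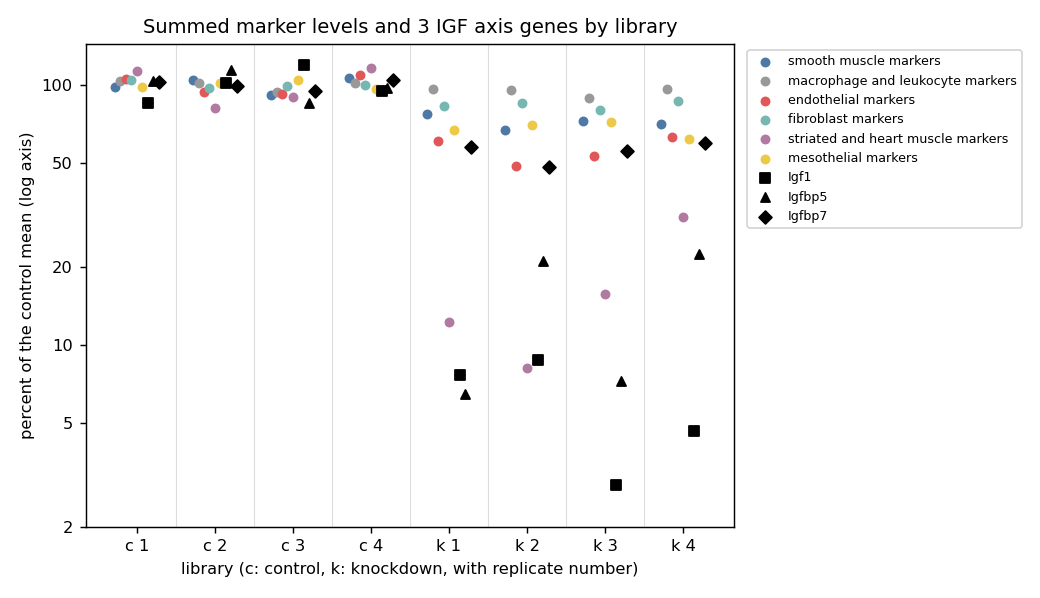
Level in each library as a percent of the control mean (y axis, log scale) for 6 summed marker lists (coloured circles) and for Igf1, Igfbp5 and Igfbp7 (black symbols), with c for control and k for knockdown libraries. In the knockdown the striated muscle sum lies at 8.16% to 30.9%, the endothelial sum at 48.7% to 63.0% and the macrophage sum at 89.0% to 96.0%.

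The genes most like a member were taken, for the member with the smallest p in each direction, as the 3 with the highest Pearson correlation of log2 CPM over the 8 libraries among 11733 genes. For Igfbp7 these were Ppfia1 (r = 0.998, log2 fold change -0.34), Tent5b (r = 0.997, -0.77) and the integrin subunit gene Itga3 (r = 0.995, -0.32). For Igfbp4 they were Zfp661 (r = 0.997, 0.55), 1010001N08Rik (r = 0.993, 0.95) and Gm15674 (r = 0.993, 1.10). The libraries fall into 2 separate groups, so these values describe mainly the shared group difference, and 33 genes exceeded r = 0.99 with Igfbp7 and 16 with Igfbp4.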

How the data were processed

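The values were whole-number counts of reads per gene as deposited, not normalized by the authors. The genome build mm10 and DESeq2 are named per the submitters' processing notes, and the aligner and counter are not named in the sources used here, nor whether strand was used. Libraries were prepared from TRIzol-extracted total RNA, per the labels. Symbols and exons came from GENCODE M21 (30008 of 30660 identifiers matched) and promoters from RefSeq GRCm38.p6. In each library 72.0% to 74.2% of counts from 1 to 40 were even, as when both reads of a pair are counted, so halved counts were an alternative. Within groups no pair of libraries differed by as little as sampling noise (at least 3.07 chi-square units per degree of freedom on halved counts).

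Tests used edgeR 4.0.16 in R 4.3.3, with filterByExpr (minimum count 10), TMM, and the functions glmQLFit and glmQLFTest without covariates on all 8 libraries, calling genes at a Benjamini-Hochberg adjusted p under 0.05. SE is the log2 fold change divided by the root of F, and intervals of fold changes use the t distribution on the residual degrees of freedom. The fit was first tested on simulated data in which few genes changed, as many up as down. That simulation cannot show how scaling acts where 51.5% of tested genes are called, as here. Alternatives were DESeq2 1.42.0, limma-voom (limma 3.58.1), other scalings and filters, a replicate block, an adjusted p under 0.01, halved counts and leaving out each library. The genes, lists and rules were chosen with earlier results of these data known. Named genes are the 10 members, Sox6, up to 4 called genes of each of 7 pathway lists by smallest p, the 3 genes most like a member whose average log2 CPM was 1 or more, and markers, apart from those said to be singled out. Igfals and Pappa were named in addition for their role, and Ins1, Ins2 and Igfbp1 were not analysed here. For 2 pathway genes that the rule names, no value is reported here.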

Additional observations from a re-analysis of the deposited data

How the results depend on the processing

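The 7 calls among the members kept their direction and their side of the threshold in all 17 refits, and 7 members were also called at an adjusted p under 0.01. The largest adjusted p among these was that of Irs1 with total count scaling (0.0371, log2 fold change -0.20). Igf1 ranged from -4.24 to -3.80, Igfbp5 from -3.05 to -2.52, Igfbp7 from -0.89 to -0.76, and Igfbp4 from 0.45 to 0.58. Insr was at 0.031 with upper quartile scaling, 0.093 with total counts and 0.00029 with genes kept at 1 CPM in 4 or more libraries, and between -0.036 and 0.016 when single libraries were left out, never past the threshold. Igfbp6 did not pass in any of its 16 refits, with 0.69 (adjusted p = 0.05495) without control replicate 2 and 0.21 without control replicate 3. The summed binding protein level was 69.9% of control in CPM with TMM, 74.9% with total counts and 60.6% per length. The sums with TMM and with total counts differ only by the TMM factors, 0.958 to 0.978 in controls and 1.02 to 1.04 in knockdowns. Per length, Igfbp7 weighs more, with 1209 bases of exon against 3130 for Igfbp3 and 4416 for Igfbp4. The replicate block left 7 members called and 7985 genes in all, and it changed no call of a member. Deviations of same-numbered libraries correlated at -0.14 to 0.08. Differently numbered libraries were not compared, so these values cannot settle whether the numbers pair the libraries. Among pathway counts, total count scaling also gave 8 adaptors higher, and with no filter 1 ligand gene was lower. Depth limits Igfbp2, and for Igf1 it limits the size of the fold change.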
